A study of Homo sapiens with 27 samples.

Results

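The expression of 36 genes of glycolysis and of the cellular response to low oxygen was compared in 3 diffuse large B-cell lymphoma (DLBCL) cell lines after SIRT3 knockdown. The genes were taken by name from a list, and all 36 were found among the 27115 genes that each library holds. RNA was sequenced on day 8 in Karpas422, OCI-Ly1 and HBL1, which the study chose as lines of the oxidative phosphorylation, germinal center B-cell-like and activated B-cell-like types of DLBCL. Each group carried 1 lentiviral hairpin: a scrambled control (shCTRL), or 1 of 2 hairpins against the mitochondrial deacetylase SIRT3 (shSIRT3-1 and shSIRT3-2). The vectors also carry puromycin resistance and YFP, in the control cells too. With 3 replicates in each of 9 groups there were 27 libraries, and each DLBCL type is represented by a single line. The study grew OCI-Ly1 in Iscove's medium, and Karpas422 and HBL1 in RPMI with added glutamine and HEPES. Medium and line thus cannot be told apart where OCI-Ly1 is compared with the other lines.

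Glycolysis splits glucose into pyruvate, and lactate dehydrogenase turns pyruvate into lactate when it is not burned in mitochondria. The hypoxia-inducible factor (HIF) is a dimer of an oxygen-regulated alpha subunit, such as HIF1A, and the constant partner ARNT. In oxygen, EGLN enzymes hydroxylate the alpha subunit and VHL marks it for degradation, so its protein level is set largely after transcription, and without oxygen the dimer binds short sites at glycolytic and other genes and raises their transcription. B-cell lymphoma lines use both glycolysis and respiration.

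Levels are given in CPM, the reads of a gene scaled to a fixed library total, which are not divided by gene length, and tests used limma on log2(CPM + 0.1). A gene was tested at 1 CPM or more in at least 3 libraries, and it was called at a fold change above 1.5 with a Benjamini-Hochberg adjusted p under 0.05 over all genes tested. Of the 36 genes, 34 were tested. EPAS1, the alpha subunit of HIF-2, peaked at 0.0985 CPM and EGLN3, an oxygen-sensing hydroxylase, at 0.252 CPM, so neither could be compared. Of the 34, 27 reached 1 CPM in every library. The labels do not say whether replicates were separate cultures, so p-values measure the spread between these libraries, which may be technical. The lines are bulk samples, in which fewer cells expressing a gene and less RNA per cell cannot be told apart. Groups without overlap with their controls were common among all genes tested. In the order Karpas422, OCI-Ly1 and HBL1, 29.2%, 13.4% and 29.7% lay wholly below with shSIRT3-1, and 18%, 16% and 19.3% above. With shSIRT3-2 the shares were 23.4%, 17.2% and 34% below and 20.6%, 14.6% and 24.9% above. A lack of overlap is thus a description and not a test.

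SIRT3 itself was lower with each hairpin in every line. Its level was 9.99, 9.14 and 10.2 CPM with shCTRL, 2.44, 2.79 and 2.57 with shSIRT3-1 and 6.24, 5.32 and 4.41 with shSIRT3-2 in Karpas422. The values were 10.7, 13.8 and 9.98 CPM with shCTRL, 2.23, 1.06 and 1.62 with shSIRT3-1 and 6.17, 4.06 and 6.03 with shSIRT3-2 in OCI-Ly1 and 13.5, 14.2 and 16.4 CPM with shCTRL, 2.13, 2.39 and 2 with shSIRT3-1 and 2.84, 3.12 and 3.82 with shSIRT3-2 in HBL1. The knockdown libraries lay below all controls of their line, and those of shSIRT3-1 below those of shSIRT3-2, with a log2 fold change of -2.45 (SE 0.17) with shSIRT3-1 and -1.37 (SE 0.17) with shSIRT3-2 over the 3 lines. All 6 B-cell markers examined stood at 1 CPM or more in all 27 libraries. Their summed level ran from 1633 to 2363 CPM with shCTRL, 1832 to 2494 with shSIRT3-1 and 944.6 to 1932 with shSIRT3-2, and the part of this shift in the results was not tested. The 5 T-cell markers summed to at most 43.8 CPM, the 4 myeloid ones to at most 1.24 and the 4 epithelial ones to at most 7.42. The depth was 28694398 to 53405456 reads on genes per library. A pair of libraries stood apart from their replicates. HBL1 shSIRT3-1 replicate 3 differed from the other replicates of its group by a chi-square of 240.2 and 283 per degree of freedom, where all other replicate pairs lay between 6.76 and 154. OCI-Ly1 shCTRL replicate 2, at 154 and 126 against its group, held the highest of those.

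The regulatory sequence just upstream of 4 members is shown because HIF1A encodes the factor, VLDLR and ANKRD37 are among its known targets that were called here, and LDHA is its textbook glycolytic target. The RefSeq table on GRCh38.p14 held 31 of the 36 genes, and it gave the 250 bases before the start of each. The letters ACGTG and GCGTG, the core of the HIF-binding site, and TGATGNAA, the letters of an ATF4-type composite element, were searched on both strands. A CACGTG counts on each strand, and the motifs could overlap. Capitals mark the matches, and a match is a description of letters only. HIF1A (chr14:61695263-61695512) holds 1 GCGTG, VLDLR (chr9:2621537-2621786) 5 matches of GCGTG, ANKRD37 (chr4:185396591-185396840) 3 of ACGTG and LDHA (chr11:18394313-18394562) 5 of ACGTG, and all 4 genes lie on the plus strand.
HIF1A: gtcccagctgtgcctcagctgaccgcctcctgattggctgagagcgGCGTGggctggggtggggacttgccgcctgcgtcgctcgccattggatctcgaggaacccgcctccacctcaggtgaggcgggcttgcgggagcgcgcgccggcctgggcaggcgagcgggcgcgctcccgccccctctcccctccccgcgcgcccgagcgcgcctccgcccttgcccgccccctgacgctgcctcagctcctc
VLDLR: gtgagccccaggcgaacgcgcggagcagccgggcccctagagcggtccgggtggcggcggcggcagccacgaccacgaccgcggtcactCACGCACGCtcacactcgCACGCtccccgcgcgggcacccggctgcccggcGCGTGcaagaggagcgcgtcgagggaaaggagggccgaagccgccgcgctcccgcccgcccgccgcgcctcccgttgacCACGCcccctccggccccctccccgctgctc
ANKRD37: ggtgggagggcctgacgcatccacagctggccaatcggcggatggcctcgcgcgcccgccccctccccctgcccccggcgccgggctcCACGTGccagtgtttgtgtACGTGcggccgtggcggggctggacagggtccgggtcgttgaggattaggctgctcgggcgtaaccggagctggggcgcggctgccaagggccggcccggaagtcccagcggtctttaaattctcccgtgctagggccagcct
LDHA: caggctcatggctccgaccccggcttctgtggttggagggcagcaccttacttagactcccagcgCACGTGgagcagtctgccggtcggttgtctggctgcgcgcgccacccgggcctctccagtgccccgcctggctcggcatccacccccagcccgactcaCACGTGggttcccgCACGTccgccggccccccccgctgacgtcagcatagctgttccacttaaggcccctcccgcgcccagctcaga

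ACGTG was found in 12 of the 31 members' windows (38.7%) and in 18.7% of the 27305 windows of the same length in the table. GCGTG was found in 12 of 31 (38.7%) against 31.9%, and either one in 20 of 31 (64.5%) against 43.1%. TGATGNAA was found in 1 window, that of HK1, against 3.19% of all windows. The list includes genes chosen as hypoxia targets, so its share of HIF-site letters is not independent of that choice and was not tested. SLC2A3, SLC16A1, VHL, VEGFA and NDRG1 had no window.

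HIF1A was lower with shSIRT3-2 in every line and was not lower with shSIRT3-1. The gene lies on chr14:62162231-62214977, plus strand, of hg19, the build of every gene position given with a strand. In Karpas422 its level was 191, 210.1 and 158 CPM in the shCTRL libraries, 232, 195 and 262 with shSIRT3-1 and 101, 101 and 89.1 with shSIRT3-2. OCI-Ly1 had 122, 148 and 125 CPM with shCTRL, 125, 165 and 128 with shSIRT3-1 and 84.6, 95.3 and 78.1 with shSIRT3-2. HBL1 had 48.2, 47.6 and 40.2 CPM with shCTRL, 55.5, 52.4 and 51.9 with shSIRT3-1 and 30.8, 28.7 and 27.2 with shSIRT3-2. The 3 shSIRT3-2 libraries of each line lay below all of its shCTRL libraries and below all of its shSIRT3-1 libraries. The shSIRT3-1 libraries overlapped the controls in Karpas422 and OCI-Ly1 and lay above them in HBL1. Over the 3 lines HIF1A fell 1.66-fold with shSIRT3-2 (log2 fold change -0.73, SE 0.084, adjusted p = 6.32e-07), while with shSIRT3-1 the value was 0.20 (SE 0.084, adjusted p = 0.0557). The direct comparison of the hairpins gave -0.94 (SE 0.084, adjusted p = 9.98e-09) for shSIRT3-2 against shSIRT3-1. Line by line, shSIRT3-2 gave -0.94 (SE 0.14, adjusted p = 0.00127) for Karpas422, -0.61 (SE 0.13, adjusted p = 0.0267) for OCI-Ly1 and -0.65 (SE 0.099, adjusted p = 0.00172) for HBL1, and the test of a difference between lines gave an adjusted p of 0.122. The OCI-Ly1 value was not called without shCTRL replicate 2 or 3 or without any 1 of the 3 shSIRT3-2 replicates, for example at -0.53 (adjusted p = 0.0686) without shCTRL replicate 2. SIRT3 RNA was reduced less by shSIRT3-2 than by shSIRT3-1, so the hairpin with the lower HIF1A was not the one with the lower SIRT3.

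**Figure D1:**
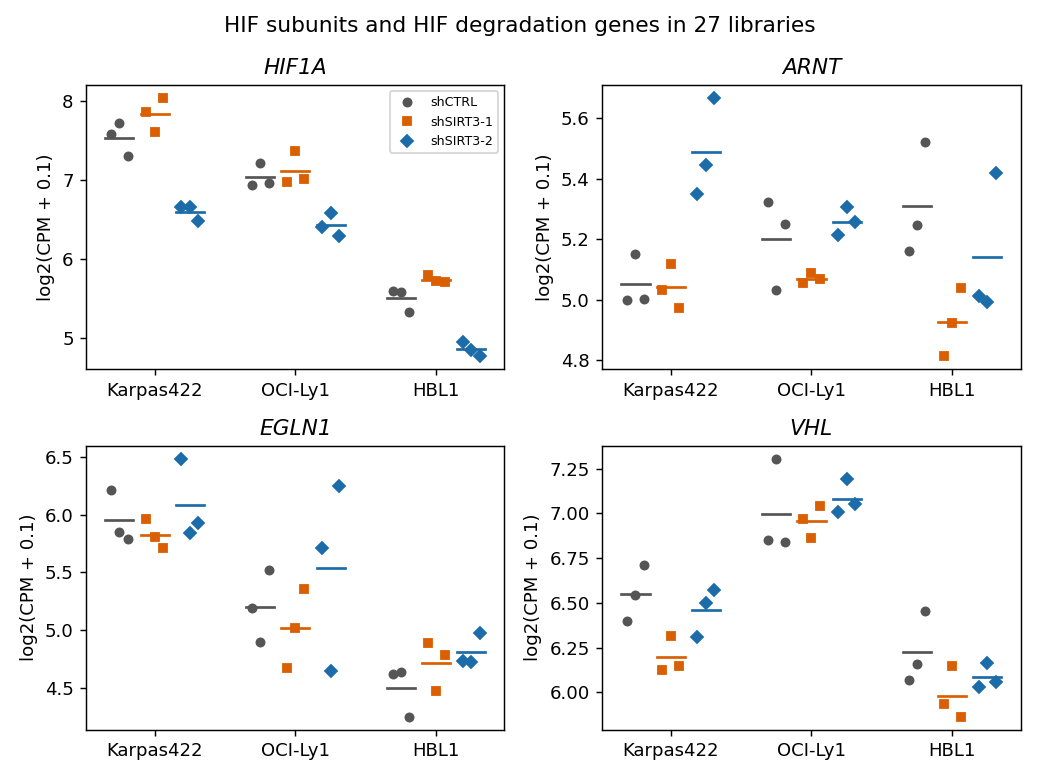
Log2(CPM + 0.1) of HIF1A, ARNT, EGLN1 and VHL (y axes) in Karpas422, OCI-Ly1 and HBL1 (x axes). Points are single libraries and bars the mean of 3, with shCTRL as circles, shSIRT3-1 as squares and shSIRT3-2 as diamonds, and in the HIF1A panel the 3 shSIRT3-2 points of each line lie below all its other points.

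Of ARNT, EGLN1 and VHL, none passed both thresholds over the 3 lines. ARNT was not called with either hairpin over the 3 lines, at -0.18 (SE 0.081, adjusted p = 0.0903) with shSIRT3-1 and 0.11 (SE 0.081, adjusted p = 0.308) with shSIRT3-2. In Karpas422 its level was 31.9, 35.5 and 31.9 CPM with shCTRL and 40.7, 43.5 and 50.7 with shSIRT3-2, so the groups did not overlap, and the log2 fold change there was 0.44 (SE 0.099, adjusted p = 0.0093), under the fold threshold. EGLN1, the main oxygen-sensing hydroxylase, had -0.03 (SE 0.15, adjusted p = 0.88) with shSIRT3-1 and 0.26 (SE 0.15, adjusted p = 0.183) with shSIRT3-2. VHL, which marks hydroxylated HIF1A for degradation, had -0.21 (SE 0.074, adjusted p = 0.024) with shSIRT3-1, a small decrease that passed the adjusted p and not the fold, and -0.05 (SE 0.074, adjusted p = 0.62) with shSIRT3-2.

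Over the 3 lines, 4 of the 34 tested members were called with shSIRT3-1, where 13% of all genes tested were called. All 4 were lower (11.8% of the members, against 9.09% of all genes called lower), and 0 were higher against 3.92%. They were VEGFA, VLDLR, ANKRD37 and PFKP. With shSIRT3-2, 5 of 34 were called against 13.5% of all genes. HIF1A, SLC2A3, VEGFA and VLDLR were lower, 4 members against 10.2% of all genes, and GPI was higher, 1 member against 3.29%. In the comparison of shSIRT3-2 with shSIRT3-1, 4 of 34 were called against 11.3%. PFKP, VLDLR and SLC16A3 were higher with shSIRT3-2, 3 members against 5.27% of all genes, and HIF1A was lower, 1 member against 6.05%. With all libraries in the fit, the shares of members called were near the background in these 3 comparisons. Without OCI-Ly1 shSIRT3-2 replicate 2 the counts were 8 with shSIRT3-2 (23.5% of members, against 13.3% of all genes in that fit) and 7 between the hairpins (20.6% against 11.1%), and without any other single library every count over the 3 lines stayed within 1.5 times. The comparisons with shCTRL share the same control libraries. Under quantile normalization the share of lower genes among all called genes went from 69.9% to 54.7% with shSIRT3-1 and from 75.6% to 59.6% with shSIRT3-2, and the members then divided into 2 higher and 3 lower with shSIRT3-1 and 1 higher and 4 lower with shSIRT3-2.

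**Figure D2:**
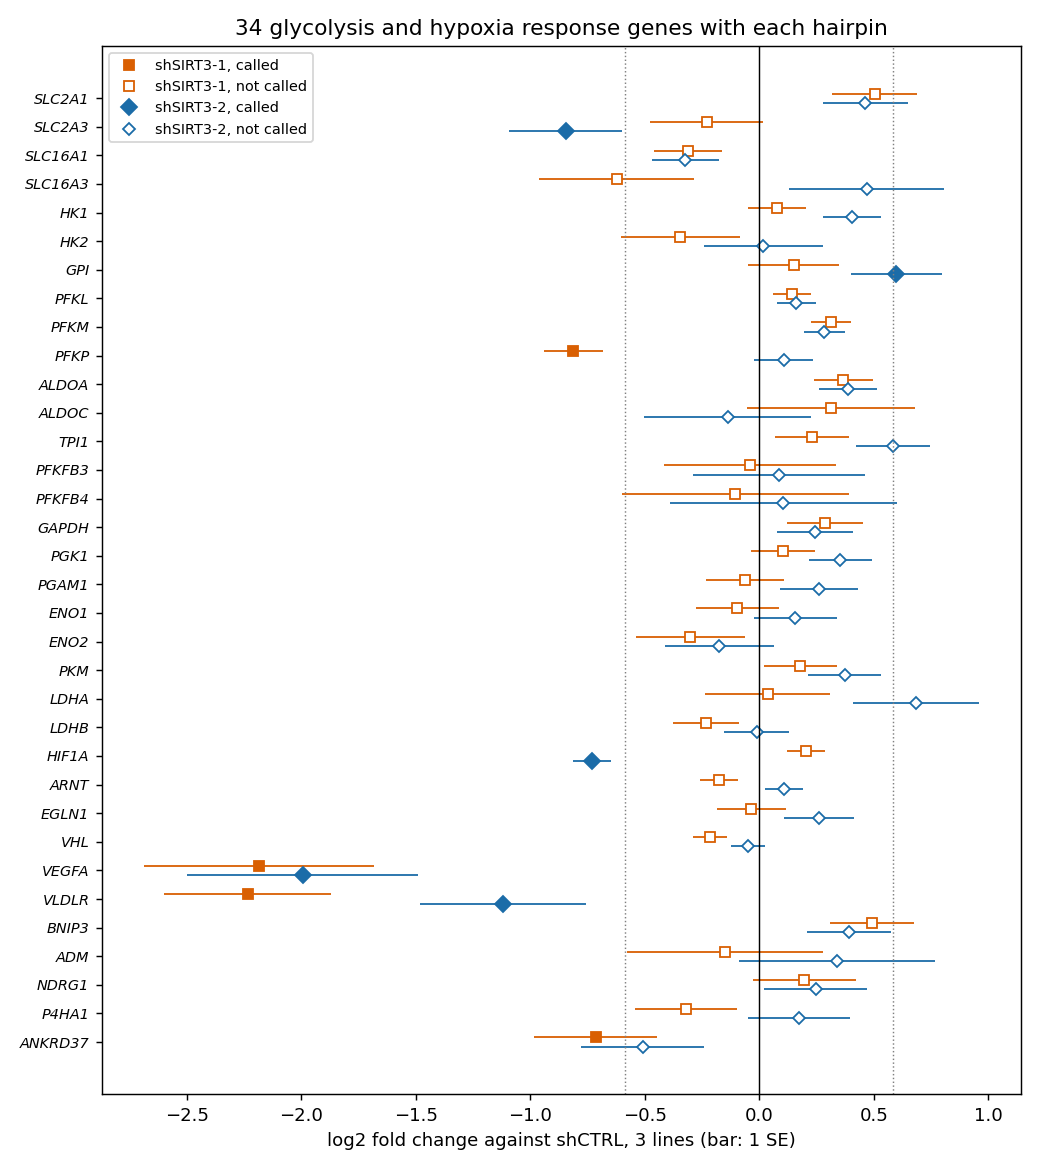
Log2 fold change against shCTRL over 3 lines (x axis, bars 1 SE) of the 34 tested members (y axis), with shSIRT3-1 as squares and shSIRT3-2 as diamonds, filled where called. Dotted lines mark a fold change of 1.5, and the filled points are VEGFA and VLDLR with each hairpin, ANKRD37 and PFKP with shSIRT3-1, and SLC2A3, HIF1A and GPI with shSIRT3-2.

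The median of the members, a description without a test, was higher with shSIRT3-2. With shSIRT3-1 the median log2 fold change of the 34 was -0.05, against -0.05 for all genes, and 15 were above 0. With shSIRT3-2 the median was 0.17, against -0.03 for all genes, and 24 of 34 were above 0. In shSIRT3-2 against shSIRT3-1 the median was 0.21, against 0.00050 for all genes, and 26 of 34 were above 0. With shSIRT3-2 the positive values of the members sat mainly among the listed glycolysis genes, with 8 of the 9 upper glycolysis genes above 0 (median 0.28) and 5 of the 6 lower ones (median 0.25). The 16 glycolysis genes tested from outside the members went the other way, with a median of -0.13, 11 below 0 and 5 above. By the adjusted p alone, 7 members were higher with shSIRT3-2 (20.6% of 34, against 16.3% of all genes). These were SLC2A1, HK1, GPI, PFKM, ALDOA, TPI1 and PGK1. With shSIRT3-1 the same criterion gave 4 higher (11.8%, against 15.6% of all genes), which were SLC2A1, PFKM, ALDOA and BNIP3. Most of these increases were small, and of the 7 with shSIRT3-2 only GPI passed the fold of 1.5.

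Among the glucose transporters, SLC2A1 (GLUT1), the widespread one, had 0.50 (SE 0.18, adjusted p = 0.0334) with shSIRT3-1 and 0.46 (SE 0.18, adjusted p = 0.0494) with shSIRT3-2, below the fold threshold. In HBL1 alone it was called with shSIRT3-1, at 24.1, 16.5 and 22.2 CPM against 11.7, 7.91 and 9.06 with shCTRL (log2 fold change 1.12, SE 0.18, adjusted p = 0.00207). SLC2A3 (GLUT3), a transporter of high affinity on chr12:8071826-8171603, minus strand, was lower with shSIRT3-2. In Karpas422 it stood at 13.1, 10.3 and 7.07 CPM with shCTRL, 11.9, 10.9 and 9.26 with shSIRT3-1 and 11.6, 4.68 and 3.3 with shSIRT3-2. In HBL1 it stood at 5.32, 5.66 and 5.64 CPM with shCTRL, 6.27, 4.42 and 1.65 with shSIRT3-1 and 2.34, 2.1 and 2.1 with shSIRT3-2. In OCI-Ly1 it was at most 0.189 CPM in any library and 0 in shCTRL replicate 1 and shSIRT3-1 replicate 1. A count of 0 allows up to 3 reads, which is 0.0249 to 0.0472 CPM over the libraries. So the shSIRT3-2 libraries were all below the controls in HBL1, overlapped them in Karpas422, and OCI-Ly1 carried almost no SLC2A3 RNA. Over the 3 lines the values were -0.85 (SE 0.25, adjusted p = 0.00857) with shSIRT3-2 and -0.23 (SE 0.25, adjusted p = 0.483) with shSIRT3-1, in HBL1 alone shSIRT3-2 gave -1.31 (SE 0.39, adjusted p = 0.0317), and the shSIRT3-2 call was lost without HBL1 (-0.62, adjusted p = 0.117) and without the replicates numbered 2 (-0.80, adjusted p = 0.137).

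SLC16A1 (MCT1), the main monocarboxylate carrier for lactate, lies on chr1:113454469-113500215, minus strand. In Karpas422 it was lower with each hairpin, at 228, 229 and 243 CPM with shCTRL, 159.8, 152 and 152 with shSIRT3-1 and 132, 132 and 95.5 with shSIRT3-2. In OCI-Ly1 the levels were 85.8, 94.2 and 65.3 CPM with shCTRL, 93.3, 80.1 and 103 with shSIRT3-1 and 102, 66 and 116 with shSIRT3-2. In HBL1 they were 138, 135 and 121 CPM with shCTRL, 104, 109 and 67.6 with shSIRT3-1 and 121, 123 and 104 with shSIRT3-2. The hairpin groups of Karpas422 lay entirely below its controls, those of OCI-Ly1 overlapped them, and in HBL1 the shSIRT3-1 libraries alone lay below them. The log2 fold changes in Karpas422 were -0.59 (SE 0.12, adjusted p = 0.00622) with shSIRT3-1 and -0.97 (SE 0.12, adjusted p = 0.000644) with shSIRT3-2, and the response differed between lines (interaction adjusted p = 0.00869). SLC16A3 (MCT4), the lactate exporter of glycolytic cells, on chr17:80175810-80219005, plus strand, was the transporter called between the hairpins over the 3 lines. In HBL1 alone SLC2A1 was called between them, at -0.60 (SE 0.18, adjusted p = 0.032), and SLC16A3 was not, at 0.57 (SE 0.22, adjusted p = 0.0675). In OCI-Ly1 SLC16A3 was at 3.89, 3.19 and 12.6 CPM with shCTRL, 2.94, 1.39 and 4.97 with shSIRT3-1 and 12.8, 2.09 and 20.6 with shSIRT3-2. HBL1 held 7.25, 6.87 and 8.3 CPM with shCTRL, 5.18, 4.44 and 3.6 with shSIRT3-1 and 6.16, 5.04 and 8.94 with shSIRT3-2, and Karpas422 stayed under 1 CPM, between 0.139 and 0.898. In HBL1 all shSIRT3-1 libraries lay below the controls, in Karpas422 all shSIRT3-2 libraries lay above them, and in OCI-Ly1 the 3 groups overlapped. Between the hairpins it differed by 1.09 (SE 0.34, adjusted p = 0.0158) over the 3 lines, and in that fit neither hairpin was called against shCTRL. In HBL1 alone SLC16A3 was called lower with shSIRT3-1, at -0.76 (SE 0.22, adjusted p = 0.0247).

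In upper glycolysis, PFKP, the platelet-type subunit of phosphofructokinase, was lower with shSIRT3-1 in each line and close to the control with shSIRT3-2. PFKP lies on chr10:3108525-3179910, plus strand. In Karpas422 its level was 82.8, 55 and 102 CPM with shCTRL, 46, 44.7 and 37.2 with shSIRT3-1 and 99.8, 68.1 and 76.5 with shSIRT3-2. OCI-Ly1 had 103, 69.5 and 103 CPM with shCTRL, 55.6, 34.7 and 52 with shSIRT3-1 and 121, 77.6 and 131 with shSIRT3-2. HBL1 had 64, 55.5 and 63 CPM with shCTRL, 40.5, 44.1 and 35.1 with shSIRT3-1 and 62.6, 67.5 and 55.3 with shSIRT3-2. Every shSIRT3-1 library lay below every shCTRL and every shSIRT3-2 library of its line. PFKP fell 1.75-fold with shSIRT3-1 (log2 fold change -0.81, SE 0.13, adjusted p = 2.81e-05) and had 0.11 (SE 0.13, adjusted p = 0.538) with shSIRT3-2. The hairpins differed by 0.92 (SE 0.13, adjusted p = 8.2e-06). The decrease was called in each line alone, with -0.86 (SE 0.21, adjusted p = 0.0132) for Karpas422, -0.96 (SE 0.25, adjusted p = 0.0458) for OCI-Ly1 and -0.61 (SE 0.12, adjusted p = 0.00421) for HBL1. In OCI-Ly1 alone it was near the threshold, and 0 members were called there when any 1 of the line's libraries other than shCTRL replicate 1 or shSIRT3-2 replicate 2 was left out. In HBL1 alone it was -0.52 (adjusted p = 0.00453) without shSIRT3-1 replicate 3, under the fold threshold.

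PFKM, the muscle-type subunit of the same enzyme, was higher with each hairpin in HBL1. PFKM, on chr12:48498922-48540187, plus strand, was at 63.9, 55.7 and 55.5 CPM with shCTRL, 91.3, 86.7 and 92.7 with shSIRT3-1 and 94.3, 96.9 and 90.8 with shSIRT3-2 in HBL1. Karpas422 held 116, 114 and 126 CPM with shCTRL, 107, 112 and 126 with shSIRT3-1 and 126, 121 and 109.5 with shSIRT3-2. OCI-Ly1 held 68.3, 53.7 and 65.3 CPM with shCTRL, 79.9, 76.6 and 81.6 with shSIRT3-1 and 76.7, 58.9 and 74.7 with shSIRT3-2. The hairpin libraries of HBL1 lay above all of its controls, as did the shSIRT3-1 libraries of OCI-Ly1, and in Karpas422 all groups overlapped. In HBL1 PFKM was 1.55-fold higher with shSIRT3-1 (log2 fold change 0.63, SE 0.086, adjusted p = 0.000918) and 1.61-fold higher with shSIRT3-2 (log2 fold change 0.69, SE 0.086, adjusted p = 0.000709), and the interaction with line gave an adjusted p of 0.00254. PFKL, the liver-type subunit, on chr21:45719934-45747259, plus strand, was at 54, 54 and 60.3 CPM with shCTRL, 71.2, 76.1 and 91.9 with shSIRT3-1 and 63.4, 58.8 and 78.1 with shSIRT3-2 in HBL1. In Karpas422 it was at 68.5, 53.4 and 66.8 CPM with shCTRL, 57.3, 66.1 and 65 with shSIRT3-1 and 78.1, 65.8 and 69 with shSIRT3-2, and in OCI-Ly1 at 178, 165 and 176 CPM with shCTRL, 164, 161 and 167 with shSIRT3-1 and 189, 158 and 197 with shSIRT3-2. Only the shSIRT3-1 libraries of HBL1 stood clear of their controls among these groups, with 0.50 (SE 0.13, adjusted p = 0.0181), under the fold threshold, and an interaction adjusted p of 0.0424.

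To compare the subunits on a scale of level per length, CPM was divided by the length in kb of the canonical GENCODE transcript, and each subunit was given as a share of the 3. PFKP made up 33.1% ± 5.2 (SD, n = 3) of phosphofructokinase RNA in Karpas422 shCTRL and 21.7% ± 3.0 with shSIRT3-1. In OCI-Ly1 the share of PFKP was 30.3% ± 3.4 with shCTRL and 17.9% ± 3.3 with shSIRT3-1. The HBL1 share was 37.7% ± 1.0 with shCTRL and 21.2% ± 3.0 with shSIRT3-1. With shSIRT3-2 the share was 32.9% ± 3.2 for Karpas422, 32.6% ± 3.4 for OCI-Ly1 and 30.6% ± 3.0 for HBL1. The shares with shSIRT3-1 did not overlap those with shCTRL in any line, and those with shSIRT3-2 lay below the controls in HBL1 alone. On the same scale LDHB, the subunit of the heart-type enzyme, exceeded LDHA, that of the muscle-type enzyme, in all 9 groups, and LDHA made up between 15.7% ± 4.2 (HBL1 shCTRL) and 37.9% ± 9.2 (OCI-Ly1 shSIRT3-2) of the pair. This order rests on the lengths used, 2241 bases for LDHA and 1303 for LDHB. Before that division OCI-Ly1 shSIRT3-2 held 458, 218 and 559 CPM of LDHA and 407, 327 and 380 of LDHB. Both values are also uncertain because of processed copies, as described below. HK1, the constitutive hexokinase, made up 44.3% ± 2.9 of hexokinase RNA in Karpas422 shCTRL and 68.6% ± 2.3 in HBL1 shCTRL, with HK2, the inducible form, as the rest. SLC2A1 made up 65.7% ± 5.2 of SLC2A1 and SLC2A3 RNA in HBL1 shCTRL, 85.3% ± 7.4 with shSIRT3-1 and 87.5% ± 1.3 with shSIRT3-2, without overlap with the controls.

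GPI, which interconverts glucose 6-phosphate and fructose 6-phosphate, was the member called higher with shSIRT3-2. It lies on chr19:34850385-34893318, plus strand. In Karpas422 it stood at 107, 64.5 and 113 CPM with shCTRL, 161, 166 and 143 with shSIRT3-1 and 198, 161 and 106 with shSIRT3-2. In OCI-Ly1 it stood at 206, 95.5 and 196 CPM with shCTRL, 171, 129.7 and 174 with shSIRT3-1 and 257, 130.5 and 287 with shSIRT3-2. In HBL1 it stood at 209.9, 183 and 116 CPM with shCTRL, 144, 173 and 94 with shSIRT3-1 and 259, 266 and 251 with shSIRT3-2. The shSIRT3-2 libraries were above all controls in HBL1, as they were for 24.9% of all genes, and in Karpas422 and OCI-Ly1 they overlapped them. GPI was 1.51-fold higher over the 3 lines (log2 fold change 0.60, SE 0.20, adjusted p = 0.0195), just past the fold threshold, and TPI1, triosephosphate isomerase, was just short of it at 0.58 (SE 0.16, adjusted p = 0.00637). The GPI call was lost in 14 of the 40 alternatives, with values between 0.50 and 0.70 over all of them, for example 0.51 without OCI-Ly1 shCTRL replicate 2 and 0.50 without Karpas422 shCTRL replicate 2. With shSIRT3-1 GPI had 0.15 (SE 0.20, adjusted p = 0.576). ALDOA, the main aldolase, was higher with each hairpin by the adjusted p and under the fold threshold, at 0.37 (SE 0.13, adjusted p = 0.0257) and 0.39 (SE 0.13, adjusted p = 0.0192). HK1 had 0.41 (SE 0.13, adjusted p = 0.0135) with shSIRT3-2 and 0.08 (SE 0.13, adjusted p = 0.662) with shSIRT3-1. HK2 had -0.35 (SE 0.26, adjusted p = 0.305) with shSIRT3-1 and 0.02 (SE 0.26, adjusted p = 0.968) with shSIRT3-2, and ALDOC, the brain-type aldolase, had 0.31 (SE 0.37, adjusted p = 0.526) and -0.14 (SE 0.37, adjusted p = 0.794).

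PFKFB3 and PFKFB4 make fructose 2,6-bisphosphate, the strongest activator of phosphofructokinase, and both are HIF targets. Neither passed the test with either hairpin, and their replicates were far apart. PFKFB4 was at 22.1, 4.52 and 4.58 CPM in Karpas422 shCTRL and 40.2, 6.51 and 3.59 with shSIRT3-2. In OCI-Ly1 it was at 109, 50.8 and 106 CPM with shCTRL, 54.7, 20.7 and 94.5 with shSIRT3-1 and 170.4, 16.9 and 270.0 with shSIRT3-2. Over the 3 lines PFKFB4 had -0.10 (SE 0.50, adjusted p = 0.888) and 0.11 (SE 0.50, adjusted p = 0.888), and PFKFB3 had -0.04 (SE 0.38, adjusted p = 0.942) and 0.09 (SE 0.38, adjusted p = 0.88), for shSIRT3-1 and shSIRT3-2. With such standard errors a 1.5-fold change was not detectable for either gene.

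In lower glycolysis none of the 6 genes was called over the 3 lines. GAPDH had 0.29 (SE 0.17, adjusted p = 0.176) with shSIRT3-1 and 0.24 (SE 0.17, adjusted p = 0.261) with shSIRT3-2. In Karpas422 alone GAPDH was called higher with shSIRT3-1, at 3242, 3498 and 2996 CPM against 2285, 1854 and 1960.1 with shCTRL (log2 fold change 0.68, SE 0.19, adjusted p = 0.0232). In HBL1 it was at 1297, 1174 and 984 CPM with shCTRL and 1331, 1469.7 and 613 with shSIRT3-1, and the log2 fold change there was -0.11 (SE 0.30, adjusted p = 0.793) with all 3 libraries and 0.29 (adjusted p = 0.0795) without replicate 3, which lay far below its group. PGK1, the first ATP-making step, had 0.35 (SE 0.14, adjusted p = 0.0458) with shSIRT3-2 over the 3 lines and was called in HBL1 alone (log2 fold change 0.68, SE 0.22, adjusted p = 0.0444), where its levels were 235, 230.4 and 211 CPM against 164, 159 and 106 and did not overlap. ENO1, PGAM1 and PKM, which carry 3-phosphoglycerate to pyruvate, lay between -0.10 and 0.37 with either hairpin and did not pass the test. ENO2, the neuronal enolase, was called lower with shSIRT3-1 in Karpas422 alone, at 16.8, 17.6 and 10.6 CPM against 24.7, 23.9 and 23.4 (log2 fold change -0.71, SE 0.19, adjusted p = 0.0168). PGAM1 was listed at 4.54 to 14.2 CPM, and it has near-identical processed copies in the genome, so its value is uncertain, as are those of GAPDH, PGK1, LDHA, LDHB, ENO1 and TPI1 to the extent that the counting split reads with such copies.

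LDHA, the HIF target that makes lactate, had 0.68 (SE 0.27, adjusted p = 0.0502) with shSIRT3-2, a fold of 1.61 that missed the adjusted p, and 0.04 (SE 0.27, adjusted p = 0.931) with shSIRT3-1. In HBL1 it was at 226, 178 and 111 CPM with shCTRL, 237, 242 and 45.2 with shSIRT3-1 and 319, 349 and 264 with shSIRT3-2. The shSIRT3-2 libraries of HBL1 lay above all controls, and replicate 3 of the shSIRT3-1 group was far below its own group. In HBL1 alone the shSIRT3-2 value was 0.91 (SE 0.58, adjusted p = 0.259) with all libraries and 0.91 (adjusted p = 0.00993) when shSIRT3-1 replicate 3 was left out of the fit. LDHB had -0.23 (SE 0.14, adjusted p = 0.202) and -0.01 (SE 0.14, adjusted p = 0.956).

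Of the other hypoxia targets, VEGFA and VLDLR showed the largest changes among the 34 tested members over the 3 lines, with each hairpin. VEGFA, the angiogenic growth factor, lies on chr6:43737921-43754224, plus strand. The Karpas422 libraries held 74.5, 67.6 and 48.8 CPM with shCTRL, 19.8, 21.2 and 3.27 with shSIRT3-1 and 43.7, 11.1 and 1.85 with shSIRT3-2. The OCI-Ly1 libraries held 39.6, 70.8 and 161 CPM with shCTRL, 20.6, 20.2 and 44 with shSIRT3-1 and 71.1, 8.81 and 121 with shSIRT3-2. The HBL1 libraries held 111, 119.8 and 152 CPM with shCTRL, 27.7, 27.9 and 13.2 with shSIRT3-1 and 22.4, 23.4 and 23.1 with shSIRT3-2. All knockdown libraries lay below all controls in Karpas422 and in HBL1, while in OCI-Ly1 each hairpin group overlapped the controls. VEGFA fell 4.54-fold with shSIRT3-1 (log2 fold change -2.18, SE 0.50, adjusted p = 0.00135) and 3.98-fold with shSIRT3-2 (log2 fold change -1.99, SE 0.50, adjusted p = 0.00308). In a single line it was called in HBL1, with -2.54 (SE 0.27, adjusted p = 0.000301) and -2.46 (SE 0.27, adjusted p = 0.000366). In Karpas422 the values were -2.48 (SE 1.00, adjusted p = 0.0834) and -2.67 (SE 1.00, adjusted p = 0.068), where the replicates of a hairpin differed by several-fold. The shSIRT3-2 call over lines was lost without HBL1 (-1.76, adjusted p = 0.0717) and without the replicates numbered 2 (-1.67, adjusted p = 0.0988).

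VLDLR, a lipoprotein receptor induced in hypoxia, lies on chr9:2621182-2660056, plus strand. In Karpas422 it was at 31.3, 29.7 and 26.4 CPM with shCTRL, 12.3, 10.9 and 7.45 with shSIRT3-1 and 32, 24 and 22.7 with shSIRT3-2. In OCI-Ly1 it was at 3.12, 35.1 and 5.33 CPM with shCTRL, 2.03, 4.18 and 2.49 with shSIRT3-1 and 5.57, 4.76 and 7.78 with shSIRT3-2, the second control library being far above the rest. In HBL1 it was at 19.6, 19.2 and 17 CPM with shCTRL, 2.02, 1.66 and 0.873 with shSIRT3-1 and 2.97, 2.65 and 2.78 with shSIRT3-2. The shSIRT3-1 libraries were below all controls in Karpas422 and HBL1, the shSIRT3-2 libraries in HBL1 alone. VLDLR fell 4.7-fold with shSIRT3-1 (log2 fold change -2.23, SE 0.36, adjusted p = 3.73e-05) and 2.17-fold with shSIRT3-2 (log2 fold change -1.12, SE 0.36, adjusted p = 0.0174), and the hairpins differed by 1.12 (SE 0.36, adjusted p = 0.0209). Its response differed between lines (interaction adjusted p = 0.032). In HBL1 the log2 fold change was -3.60 (SE 0.26, adjusted p = 6.13e-05) with shSIRT3-1 and -2.69 (SE 0.26, adjusted p = 0.000211) with shSIRT3-2, and in Karpas422 it was -1.53 (SE 0.19, adjusted p = 0.00056) and -0.17 (SE 0.19, adjusted p = 0.53). Without HBL1 the shSIRT3-2 value over the remaining lines was -0.33 (adjusted p = 0.538), and without the replicates numbered 2, among them the high control library, it was -0.68 (adjusted p = 0.278). Without OCI-Ly1 shCTRL replicate 2 alone it was -0.90 (adjusted p = 0.043). The shSIRT3-1 call held under all 40 alternatives, between -2.58 and -1.55.

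**Figure D3:**
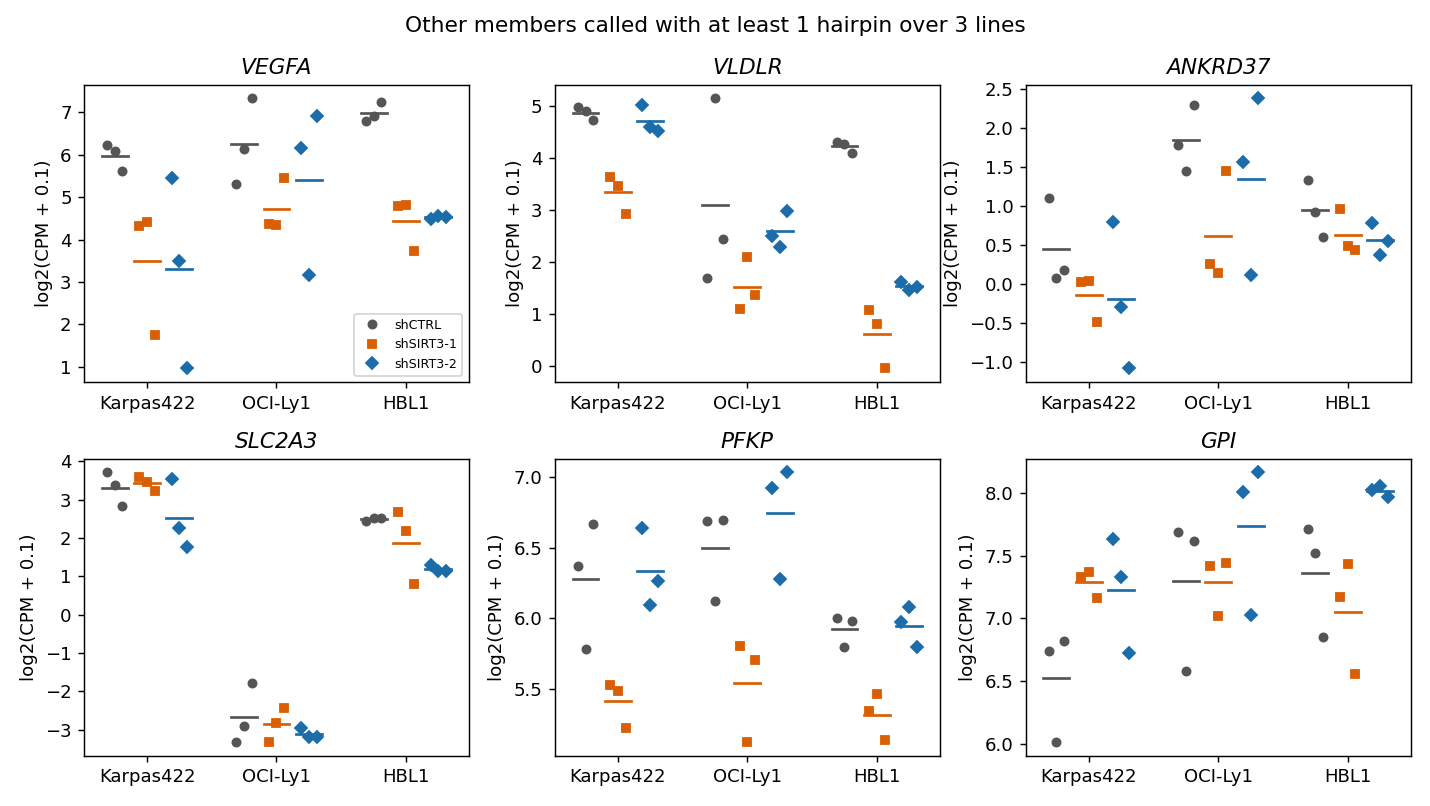
Log2(CPM + 0.1) of VEGFA, VLDLR, ANKRD37, SLC2A3, PFKP and GPI (y axes) in each line (x axes). Points are single libraries and bars the mean of 3, and the panels show PFKP lower with shSIRT3-1 (squares) in every line, VEGFA and VLDLR lower with each hairpin in HBL1, and 1 OCI-Ly1 control library of VLDLR at 35.1 CPM.

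ANKRD37, a small ankyrin protein induced by HIF, on chr4:186317175-186321782, plus strand, was expressed at 0.373 to 5.09 CPM. Levels in Karpas422 were 2.04, 0.952 and 1.03 CPM with shCTRL, 0.922, 0.923 and 0.615 with shSIRT3-1 and 1.63, 0.714 and 0.373 with shSIRT3-2. Levels in OCI-Ly1 were 3.33, 2.63 and 4.78 CPM with shCTRL, 1.1, 1.01 and 2.61 with shSIRT3-1 and 2.84, 0.98 and 5.09 with shSIRT3-2. Levels in HBL1 were 2.42, 1.79 and 1.42 CPM with shCTRL, 1.84, 1.3 and 1.25 with shSIRT3-1 and 1.61, 1.19 and 1.36 with shSIRT3-2. The shSIRT3-1 libraries lay below all controls in Karpas422 and OCI-Ly1 and overlapped them in HBL1, and 8 of the 9 lay below the control mean of their line. ANKRD37 was lower with shSIRT3-1 (log2 fold change -0.71, SE 0.27, adjusted p = 0.0382), and the call was lost in 16 of the 40 alternatives, for example with edgeR on recovered reads (-0.71, adjusted p = 0.0584). With shSIRT3-2 it had -0.51 (SE 0.27, adjusted p = 0.138).

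The remaining targets were not called over the 3 lines with either hairpin. BNIP3, a mitophagy receptor, had 0.49 (SE 0.18, adjusted p = 0.0354) with shSIRT3-1 and 0.39 (SE 0.18, adjusted p = 0.094) with shSIRT3-2, and in HBL1 it was called higher with shSIRT3-1, at 13.2, 10.7 and 11.1 CPM against 7.35, 7 and 5.95. ADM, the vasodilator peptide adrenomedullin, was called higher in HBL1 with shSIRT3-2, at 10, 7.42 and 6.09 CPM against 3.93, 3.21 and 1.63 (log2 fold change 1.45, SE 0.32, adjusted p = 0.00907), and over the lines it had -0.15 (SE 0.43, adjusted p = 0.808) and 0.34 (SE 0.43, adjusted p = 0.563) for shSIRT3-1 and shSIRT3-2. In Karpas422 ADM was at most 0.0563 CPM, below the pseudocount of 0.1, so that line held little information on a change. P4HA1, a collagen prolyl hydroxylase subunit, was called lower in HBL1 with shSIRT3-1 (log2 fold change -0.61, SE 0.17, adjusted p = 0.0204), though not without shSIRT3-1 replicate 3, at -0.45 (adjusted p = 0.0274), and had -0.32 (SE 0.22, adjusted p = 0.27) and 0.17 (SE 0.22, adjusted p = 0.569) over the lines. NDRG1, a stress-response gene, had 0.20 (SE 0.22, adjusted p = 0.512) and 0.25 (SE 0.22, adjusted p = 0.407).

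Counted in each line alone, shSIRT3-1 changed 6 of 31 tested members in Karpas422 against 16% of all genes. These were GPI and GAPDH higher and ENO2, PFKP, SLC16A1 and VLDLR lower. In OCI-Ly1 it changed 1 of 32, PFKP, against 4.5%. In HBL1 it changed 8 of 34 against 27.6%, with SLC2A1, PFKM and BNIP3 higher and SLC16A3, PFKP, P4HA1, VEGFA and VLDLR lower. With shSIRT3-2 the counts were 3 in Karpas422 against 15% (TPI1 higher, HIF1A and SLC16A1 lower), 1 in OCI-Ly1 against 6.41% (HIF1A lower) and 7 in HBL1 against 23.5% (PFKM, PGK1 and ADM higher, HIF1A, SLC2A3, VEGFA and VLDLR lower). Between the hairpins 5 members differed in Karpas422 against 11.5%, 2 in OCI-Ly1 against 4.68% and 6 in HBL1 against 27.9%. HIF1A and PFKP were called between the hairpins in each line, HIF1A lower and PFKP higher with shSIRT3-2. Several of these counts turned on 1 library. Where no share of all genes is given with such a count, it describes the fit and not the members in particular. In OCI-Ly1 the count with shSIRT3-1 was 0 without shCTRL replicate 2 or 3, any shSIRT3-1 replicate or shSIRT3-2 replicate 1 or 3, and 2 without shCTRL replicate 1. With shSIRT3-2 it was 0 there without shCTRL replicate 2 or 3 or shSIRT3-2 replicate 1 or 3, and 2 without shCTRL replicate 1. Between the hairpins it was 0 there without replicate 2 or 3 of shSIRT3-1 or replicate 1 or 3 of shSIRT3-2. In Karpas422 the count with shSIRT3-1 was 3 without shSIRT3-1 replicate 2 or 3, that with shSIRT3-2 was 5 without shSIRT3-2 replicate 1, and that between the hairpins was 2 without shSIRT3-1 replicate 3. In HBL1 the count with shSIRT3-1 was 5 without shCTRL replicate 1 or 3, and that with shSIRT3-2 was 11 without shSIRT3-1 replicate 3, against 28.6% of all genes in that fit. Without the same library the HBL1 count with shSIRT3-1 was 7, with PFKP and P4HA1 no longer called and PFKFB4 called higher, at 0.89 (adjusted p = 0.0228). The 4 members added with shSIRT3-2 were NDRG1, LDHA, TPI1 and GPI, all higher. Of the 6 members called between the hairpins in HBL1, SLC2A1, VLDLR, PFKP and ADM were not called without it. Members newly called between the hairpins in that fit are not listed here, so its count does not follow from these losses. Between the hairpins the HBL1 count was 2, 2 and 3 without shSIRT3-2 replicate 1, 2 or 3.

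**Figure D4:**
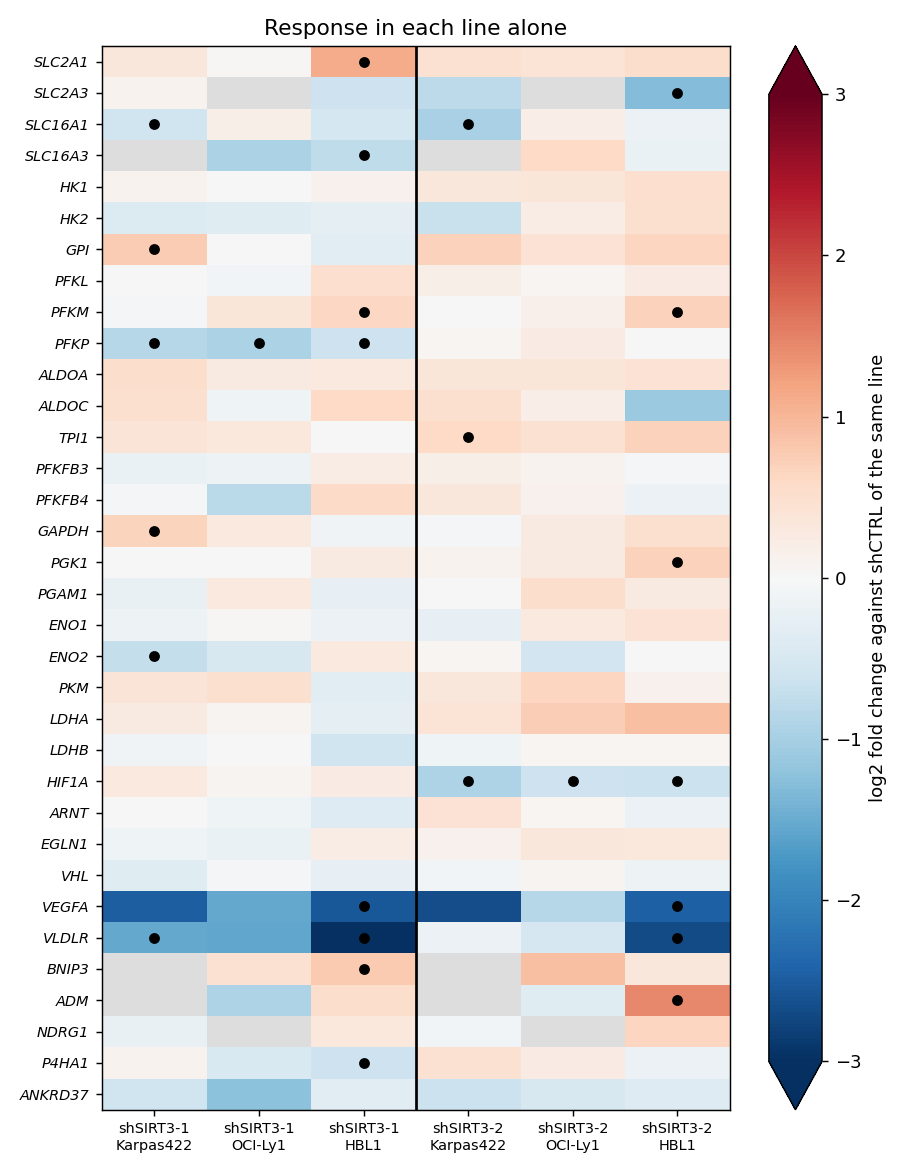
Log2 fold change against shCTRL of the same line (color, from -3 to 3) for the 34 tested members (rows) with each hairpin in each line (columns). Dots mark calls and grey marks genes not tested in that line, and the dots of PFKP fill the shSIRT3-1 columns as those of HIF1A fill the shSIRT3-2 columns.

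The response differed between lines for 6 of 34 members by the interaction test, against 41.8% of all genes tested. They were PFKM, SLC16A1, VLDLR, PFKL, ARNT and GAPDH. The count was 2 or 3 without any 1 of 12 libraries: Karpas422 shCTRL replicates 1 and 3, shSIRT3-1 replicate 1 and shSIRT3-2 replicate 3, OCI-Ly1 shCTRL replicate 3, shSIRT3-1 replicates 1 and 3 and shSIRT3-2 replicate 1, and HBL1 shCTRL replicates 1 and 2 and shSIRT3-2 replicates 1 and 2. For those 12 fits the shares of all genes passing are not given, so their counts are no result about the members in particular. The levels in shCTRL cells differed between lines for 23 of 34 members, against 85.1% of all genes. HIF1A was highest in Karpas422 (158 to 210.1 CPM), intermediate in OCI-Ly1 (122 to 148) and lowest in HBL1 (40.2 to 48.2), and the lines did not overlap. SLC2A1 was highest in OCI-Ly1, with 108, 93.7 and 111 CPM in OCI-Ly1, 40.2, 22.3 and 24.4 in Karpas422 and 11.7, 7.91 and 9.06 in HBL1. BNIP3 was at 0.263, 0.516 and 0.223 CPM in Karpas422 controls and 60.5, 32.5 and 48.7 in those of OCI-Ly1. ALDOA, ARNT, ENO1, GPI, LDHA, P4HA1, PFKP, PGAM1, TPI1, VEGFA and VLDLR did not pass the test between lines.

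The replicates of 1 group differed more for these genes than for most. The median within-group SD of the 34 members was 0.39 on the log2 scale, against 0.22 for all genes tested. VEGFA had 1.22, PFKFB4 1.20, ADM 0.98 and PFKFB3 0.94, while HIF1A had 0.16, ARNT 0.14 and PFKM 0.12. In part the members moved together in libraries that share a replicate number. In OCI-Ly1 replicate 2 was the lowest of the 3 in all 3 shRNA groups for 20 of 34 members (58.8%), against 9.51% of all genes. In OCI-Ly1 replicate 3 was the highest in all 3 groups for 10 members (29.4%), against 5.48%. In Karpas422 replicate 1 was the highest in all 3 groups for 13 members (38.2%), among them PFKFB3, PFKFB4, HK2 and LDHA, against 3.24%. In HBL1 replicate 3 was the lowest in all 3 groups for 12 members (35.3%), against 18.9%. These 4 are the largest member shares of the 18 combinations of line, number and rank that were counted, and no test was made of them. PFKFB3 shows it, with 43.8, 12 and 9.41 CPM in the shCTRL, 28.6, 12.3 and 9.38 in the shSIRT3-1 and 94.9, 8.1 and 9.39 in the shSIRT3-2 libraries of Karpas422, numbered 1, 2 and 3. HIF1A was the 1 member that was highest in replicate 2 of each OCI-Ly1 group. With the means of line and number removed, the median SD of the members was 0.27, against 0.18 for all genes, and PFKFB4 had 0.59. The labels do not say what the numbers stand for, and their part in the results above was not tested beyond the fit with a replicate block.

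**Figure D5:**
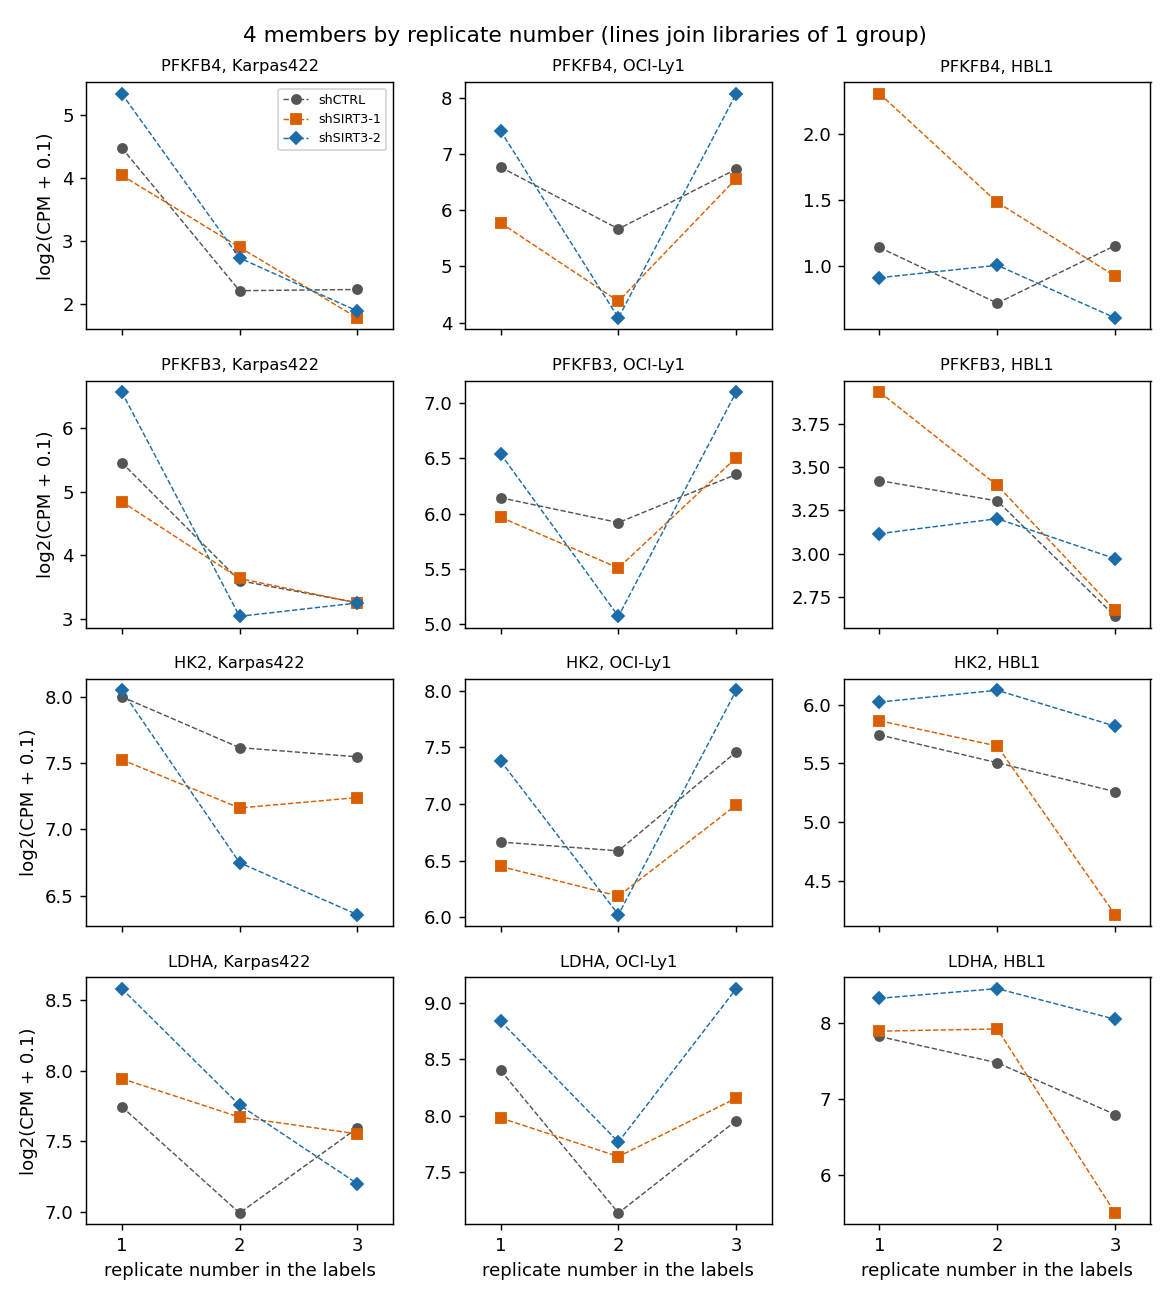
Log2(CPM + 0.1) (y axes) of PFKFB4, PFKFB3, HK2 and LDHA (rows) by replicate number (x axes) in Karpas422, OCI-Ly1 and HBL1 (columns), with dashed lines joining the 3 libraries of a group, which have no order. Replicate 1 is highest in each Karpas422 group and replicate 2 lowest in each OCI-Ly1 group for all 4 genes.

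Other genes of both pathways were taken from longer lists. Of 25 other glycolysis genes 16 were tested, and 1 was higher (PGAM2) and 1 lower (ENO3) with shSIRT3-1, and 2 were higher (SLC2A6 and PGM1) and 1 lower (ENO3) with shSIRT3-2. Of 36 other hypoxia genes 27 were tested, and 4 were lower and 0 higher with shSIRT3-1, and 4 lower and 1 higher (TFRC) with shSIRT3-2. Of all genes, 9.09% were called lower and 3.92% higher with shSIRT3-1, and 10.2% lower and 3.29% higher with shSIRT3-2. DDIT4, an inhibitor of mTORC1 induced by hypoxia and by other stresses, was lower with each hairpin over the 3 lines, at -2.15 (SE 0.44, adjusted p = 0.000406) and -2.24 (SE 0.44, adjusted p = 0.000298). Its response differed between lines (interaction adjusted p = 0.0102). In OCI-Ly1 alone DDIT4 was not called, at -1.11 (SE 0.57, adjusted p = 0.237) with shSIRT3-1 and -0.45 (SE 0.57, adjusted p = 0.637) with shSIRT3-2. In HBL1 it was at 47.7, 45.3 and 30.1 CPM with shCTRL, 5.23, 3.37 and 2.65 with shSIRT3-1 and 1.62, 1.74 and 2.48 with shSIRT3-2, with no overlap. In Karpas422 it was at 256, 203 and 177 CPM with shCTRL, 87.9, 65.1 and 30.5 with shSIRT3-1 and 139.5, 51.8 and 21.6 with shSIRT3-2, again without overlap, while in OCI-Ly1, at 119, 275 and 171 CPM with shCTRL, 67.2, 71.6 and 114 with shSIRT3-1 and 168, 46 and 285 with shSIRT3-2, the shSIRT3-2 group overlapped the controls. ENO3, the muscle enolase, had -0.98 (SE 0.15, adjusted p = 2.12e-05) and -0.65 (SE 0.15, adjusted p = 0.00159), and all 18 knockdown libraries lay below the control mean of their line. PLOD2, a collagen lysyl hydroxylase, and STC2, the glycoprotein stanniocalcin, were called lower with each hairpin, but their RNA was at most 0.00866 and 0.0692 CPM in any library outside HBL1. PLOD2 fell in HBL1 from 2.16, 3.36 and 4.18 CPM to 0.084, 0.139 and 0.018 with shSIRT3-1 and 0.0781, 0.0914 and 0.0845 with shSIRT3-2 (adjusted p = 7.43e-05 and 9.85e-05). STC2 fell from 29.1, 28.8 and 25.1 CPM to 3.53, 3.04 and 1.78 and 2.25, 3.14 and 2.83 (adjusted p = 6.28e-05 and 7.3e-05). The fold over 3 lines of these genes is set partly by the pseudocount in the other lines and is not given.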

How the data were processed

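RNA was sequenced as paired-end reads from 27 libraries of 3 cell lines, 3 shRNAs and 3 replicates. The authors used STAR for alignment to hg19, and Rsubread for counting over RefSeq genes. Tool versions are not given in the sources used here. The deposited values carry the name FPKM, but in every library they are whole multiples of 1 step per library that does not depend on gene length, so they were treated as CPM relative to the authors' total, of which 40.3 to 45.6% fell on the listed genes. Dividing by the step gave reads for every value (100% whole within 0.01). Groups were taken from the sample labels.

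Values were analysed as log2(CPM + 0.1) with limma 3.58.1 (R 4.3.3, trended empirical Bayes) after a filter of 1 CPM in at least 3 libraries, in an additive fit of line and shRNA (13076 genes), in each line alone (Karpas422 11235 genes, OCI-Ly1 11205, HBL1 11862), with an interaction of line and shRNA, and between lines in the shCTRL libraries (12607 genes). A fold change is on this scale and understates changes of low genes. All tests were two-sided, and p-values were adjusted by Benjamini-Hochberg over all genes tested. Scripts were tested on simulated data. Summaries and figures were made with Python 3.11.15, pandas 2.3.3, numpy 2.4.6 and matplotlib 3.10.9.

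The members and lists were chosen with earlier results of these data known. Values in every library are given for SIRT3, HIF1A, up to 8 members called with either hairpin, up to 4 called between the hairpins and up to 4 with the smallest interaction p. Of the other pathway genes, up to 6 called with each hairpin in the same direction are named. Genes called in 1 line, genes just outside a threshold and examples of a pattern were added after their values were seen. Alternatives were pseudocounts of 1 and 0.01, no filter, median-ratio scaling, quantile normalization, the replicate number as a block, edgeR 4.0.16 on the recovered reads, and leaving out each replicate number, OCI-Ly1 shCTRL replicate 2 and each line. Leaving out each of the 27 libraries alone was added after seeing the data. Gene positions are from GENCODE on hg19 and promoter sequences from RefSeq on GRCh38.p14.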

Additional observations from a re-analysis of the deposited data

Results flagged for a closer look

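The response to the hairpins differed between lines for 6 members by the interaction test of limma. For PFKM the adjusted p was 0.00254, with log2 fold changes with shSIRT3-1 of -0.05 for Karpas422, 0.35 for OCI-Ly1 and 0.63 for HBL1. For SLC16A1 it was 0.00869, with -0.97, 0.19 and -0.18 with shSIRT3-2 in the same order of lines. For VLDLR it was 0.032, with -0.17, -0.50 and -2.69 with shSIRT3-2. For PFKL it was 0.0424, with 0.00, -0.08 and 0.50 with shSIRT3-1. For ARNT it was 0.0425, with 0.44, 0.06 and -0.17 with shSIRT3-2. For GAPDH it was 0.048, with 0.68, 0.29 and -0.11 with shSIRT3-1. The HBL1 value of GAPDH turned on shSIRT3-1 replicate 3, at 1 library of 613 CPM where the other 2 held 1331 and 1469.7, and without that library it was 0.29 (adjusted p = 0.0795) and the interaction adjusted p of GAPDH was 0.055. That of PFKL was 0.139 without the same library, while those of PFKM, SLC16A1, VLDLR and ARNT stayed under 0.05. Other single libraries mattered too. The value of ARNT was 0.0989 without Karpas422 shSIRT3-2 replicate 3, and that of GAPDH 0.0973 without Karpas422 shSIRT3-1 replicate 2. Without HBL1 shCTRL replicate 2 it was 0.0743 for VLDLR and 0.0799 for PFKL. Only PFKM and SLC16A1 stayed under 0.05 whichever single library was left out. Of all genes 41.8% passed, and without the filter on low values 3 members passed, in a fit for which the share of all genes is not given.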

How the results depend on the processing

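No value changed direction past its threshold. Of 880 values of single genes under the alternatives 837 kept their direction and their status, called or not called. Many of the 880 belong to results not called in the main fit. Most of the changes were lost calls of ANKRD37 with shSIRT3-1 (16 of 40) and GPI with shSIRT3-2 (14 of 40). Of 428 counts and knockdown values 353 were classed as unchanged. HIF1A with shSIRT3-2 and PFKP, VEGFA and VLDLR with shSIRT3-1 passed under all 40 alternatives each. Without the filter, 3 members had a line-dependent response and 0 were called in OCI-Ly1 with shSIRT3-1. Without HBL1, 1 member was called with shSIRT3-2 over the remaining lines, and without OCI-Ly1 shCTRL replicate 2, 0 were called in OCI-Ly1 with either hairpin. The shares of all genes in these fits are not given, so the counts describe the fits and not the members in particular.

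Leaving out replicates moved the counts of called members with shSIRT3-1 from 3 to 5 over the 3 lines, from 1 to 7 for Karpas422, from 0 to 2 for OCI-Ly1, and from 3 to 10 for HBL1. With shSIRT3-2 they ran from 2 to 8, from 2 to 7, from 0 to 2 and from 2 to 11 in that order, and between the hairpins from 2 to 7, from 1 to 6, from 0 to 7 and from 0 to 10. The members with a line-dependent response lay between 0 and 9, and those differing between lines in shCTRL between 20 and 28. The knockdown of SIRT3 lay between -2.54 and -2.34 with shSIRT3-1 and between -1.44 and -1.27 with shSIRT3-2. Fewer libraries entered these fits, and the cause was not tested further. The shares of all genes called in these fits are not given, so the ranges are no result about the members in particular.

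With the replicate number as a block, 6 members were called with shSIRT3-2 in Karpas422 (against 16.5% of all genes in that fit), 2 with shSIRT3-1 and 3 with shSIRT3-2 in OCI-Ly1 (against 6.58% and 9.1%), and in HBL1 11 with shSIRT3-2 and 11 between the hairpins (against 27.3% and 32.3%), and SLC16A3 with shSIRT3-1 over the 3 lines was called (adjusted p = 0.0282). Deviations of same-numbered libraries within a line correlated at a mean r of 0.32 (0.0144 to 0.564 over 27 pairs, across genes), against -0.139 for the 54 other pairs, and 25 of 27 libraries were closest to their own number. The deviations were taken from the group mean and cancel within a group. The negative value of the other pairs thus follows in part from the positive one and is no separate comparison. Since the lowest was under 0.1 and the labels give the numbers no meaning, they were not treated as pairing the samples. Outside the block fit, differences shared by a number therefore stay in the spread that the p-values measure. SLC2A3 with shSIRT3-2 was not called at a pseudocount of 0.01 (adjusted p = 0.068), and GPI with shSIRT3-2 was at 0.58 under quantile normalization. Depth limits genes near the floor of 3 reads, and the spread between replicates limits PFKFB3, PFKFB4 and ADM.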
